A study of Mus musculus with 27 samples.

Results

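The sarcomere is the repeating contractile unit of skeletal and heart muscle, in which myosin filaments pull on actin filaments. Troponin and calcium released from internal stores switch the pull on. Many of its proteins come in isoforms from separate genes that are used in fast skeletal fibres, in slow skeletal fibres or in the heart, so that the set of isoforms in an RNA sample shows which kind of striated muscle its transcripts resemble. The aorta itself is built from smooth muscle, which has its own actin and myosin genes. Heart muscle adjoins its root, and skeletal muscle lies along its outer course.

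The 34 striated muscle genes followed here were taken by symbol, out of 42375 genes in the bulk count tables and 32285 in the single-cell matrices, and every one of the 34 was listed in both. By the known use of their products they were placed in 7 classes. The fast skeletal class has 13 genes (Myh1, Myh2, Myh4, Myl1, Mylpf, Tnnt3, Tnni2, Tnnc2, Actn3, Atp2a1, Casq1, Pvalb and Myoz1). The slow skeletal class has 2 (Tnni1 and Tnnt1), and 4 are used in both slow fibres and the heart (Myh7, Myl2, Myl3 and Tnnc1). The cardiac class has 5 (Myh6, Tnnt2, Tnni3, Actc1 and Nppa). A further 3 are used in every skeletal fibre (Acta1, Ryr1 and Neb), 5 in skeletal and heart muscle (Ckm, Ttn, Tcap, Mb and Eno3) and 2 in striated and smooth muscle (Des and Pln).

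The study concerns the transcription factor KLF10 and the cytokine IL-9 in CD4+ T cells and in scarring around vessels, per the series title, and all mice were C57BL/6 mice infused with angiotensin II for 28 days. Bulk RNA sequencing covered non-stripped aorta (3 TKO and 3 Cre libraries), stripped aorta (2 TKO and 4 Cre), isolated aortic fibroblasts (3 TKO and 3 Cre), and non-stripped aorta of TKO mice that also received an antibody against IL-9 (2 libraries, anti-IL-9 below) or control IgG (3). Single-cell libraries came from digested non-stripped aorta (2 TKO and 2 Cre). The labels define neither Cre nor TKO. The allele, the driver of the recombinase, the age of the mice, what stripping removed and whether each library is a separate mouse are not given in the sources used here. P-values therefore measure the spread between libraries, which may be technical. For the stripped group, titles say nonstripped but all other fields do not, and the other fields were followed.

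Bulk libraries held 17179257 to 38633457 counts. Klf10, the gene of the transcription factor named in the series title, had 41.3, 35.4 and 0 CPM in the non-stripped TKO libraries. The Cre libraries had 40.7, 50.1 and 65.7 CPM, and every other TKO library had reads of Klf10. The labels do not say whether this gene was altered, in which part or in which cells. CPM, here and below, are counts divided by the library size after edgeR's TMM scaling, on the usual scale. Several libraries stood apart in their muscle genes: non-stripped TKO 3, stripped Cre 3 and Cre 4, fibroblast TKO 1, IgG 1 and IgG 3, and single-cell TKO 1. Values without them, or ranges over fits that left out 1 library, are given for the main results they bear on. In whole tissue, a larger number of muscle cells and more RNA per muscle cell cannot be told apart.

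The class of a muscle gene is set in part by its promoter. RefSeq promoter windows on GRCm38.p6 were found for 28 of the 34 members, and the 250 bases before the annotated start were searched on both strands for the E-box CANNTG (the site type of the MyoD family), the CArG box (the site type of serum response factor), the MEF2 motif and TATAAA. A CArG box was in 4 of the 28 windows (14.3%), those of Acta1, Actc1, Myh4 and Myl3, against 1.47% of 32851 promoters. TATAAA was in 25% of the member windows and 12.4% of all, the E-box in 82.1% and 66.2%, and the MEF2 motif in 1 window, that of Ttn (3.57%), and 0.508%. These are matches of letters, not shown sites. The starts are those of RefSeq and can differ from the GENCODE gene starts. The Myl2 window ended at 122092723, and its GENCODE gene began at 122100951. Windows of Mylpf, Ckm, Tnni1, Myl3 and Actc1 lay inside their GENCODE genes. For each member the first listed window was used, while the set of all promoters was not reduced to 1 per gene. The windows of 3 members are printed because they stand for the skeletal actin, the cardiac actin and the fast myosin that set the libraries apart below. Capitals mark the CArG box and TATAAA on either strand, and E-boxes are left in lower case. They lie at chr8:123894776-123895025 (minus strand), chr2:114052876-114053125 (minus strand) and chr11:67237562-67237811 (plus strand).
Acta1: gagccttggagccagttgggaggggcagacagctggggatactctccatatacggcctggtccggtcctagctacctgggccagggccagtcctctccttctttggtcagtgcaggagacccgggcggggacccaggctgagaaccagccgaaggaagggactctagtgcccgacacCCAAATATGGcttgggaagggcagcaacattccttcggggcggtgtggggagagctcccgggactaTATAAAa
Actc1: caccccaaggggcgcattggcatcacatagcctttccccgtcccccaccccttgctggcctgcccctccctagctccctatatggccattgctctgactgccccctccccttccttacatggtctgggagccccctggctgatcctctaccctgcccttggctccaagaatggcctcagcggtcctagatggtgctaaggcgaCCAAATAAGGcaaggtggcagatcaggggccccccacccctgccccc
Myh4: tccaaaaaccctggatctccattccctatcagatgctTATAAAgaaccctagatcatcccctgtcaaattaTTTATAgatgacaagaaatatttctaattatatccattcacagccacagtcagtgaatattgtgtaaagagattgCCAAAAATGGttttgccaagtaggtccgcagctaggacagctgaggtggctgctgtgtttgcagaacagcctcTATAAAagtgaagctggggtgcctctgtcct
The CArG box ended 63 bases before the annotated start in the skeletal actin window, 37 bases before it in the cardiac actin window and 94 bases before it in the Myh4 window. Only the Acta1 and Myh4 windows held TATAAA as well.

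In non-stripped aorta, the question was whether muscle transcripts differed between TKO and Cre. Skeletal muscle genes of fast and slow fibres were higher in every TKO library than in any Cre library, while cardiac Tnni3 was near the floor in both genotypes. By edgeR's quasi-likelihood test with Benjamini-Hochberg adjustment over 15162 genes, 0 of 33 tested members passed the threshold of 0.05 (0.119% of all genes passed), although 31 had an unadjusted p under 0.05, as had 17.9% of all genes. DESeq2 called 26 members, all higher in TKO (4.85% of its genes passed), a joint edgeR fit over all 8 bulk groups called 21 (3.65%), and edgeR without the filter on low counts called 29 (3.02%). Every TKO library exceeded every Cre library for 29 of 33 members, against 14.9% of all genes, and lay below every Cre library for 0, against 10.6%. The median log2 fold change was 3.14 over the tested members and -0.02 over all genes.

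Acta1 encodes the actin of adult skeletal thin filaments. It had 1064, 1087 and 3826 CPM in the TKO libraries, against 99.2, 376 and 210.3 CPM in the Cre libraries. TKO 3 was the highest and Cre 1 the lowest, and the lowest TKO library lay above the highest Cre library. Its log2 fold change was 3.12 ± 0.64 (SE; adjusted p = 0.077). All 34 members together took 0.833, 0.73 and 2.88% of counts in the TKO libraries, against 0.0756, 0.25 and 0.152% in the Cre libraries.

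**Figure D1:**
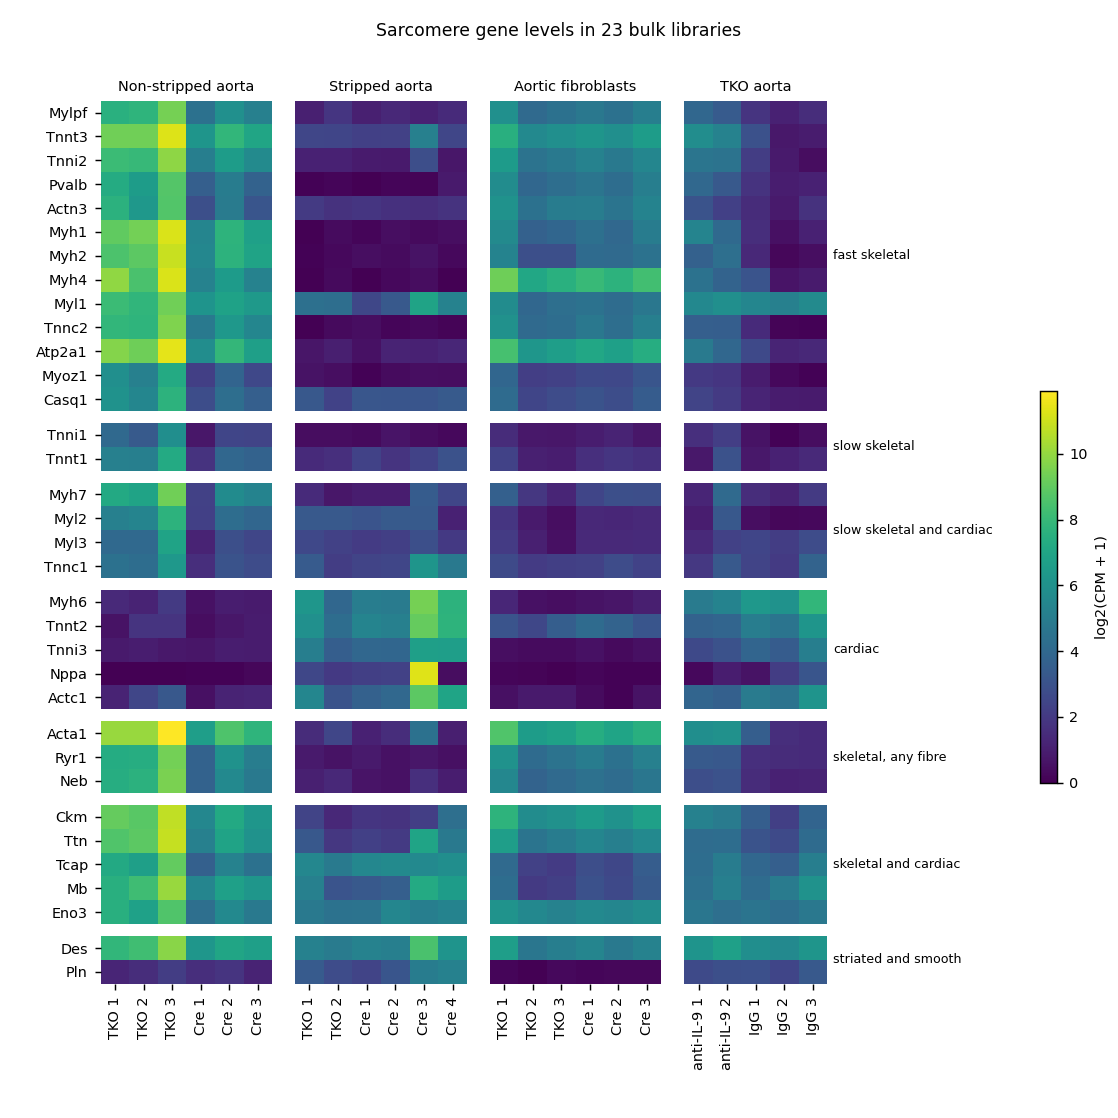
Level of the 34 members (rows, grouped by class) in each of the 23 bulk libraries (columns, grouped by table), as log2(CPM + 1). The Acta1 row is brightest in the TKO libraries of the first table (1064, 1087 and 3826 CPM), and the Actc1 row is brightest in stripped Cre 3 and Cre 4.

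The motor proteins came next. Myh1 encodes the myosin heavy chain of type 2X fibres, and it had 515, 663 and 2359.6 CPM in TKO, against 41.1, 208 and 105 CPM in Cre. Myh2, of type 2A fibres, had 366, 472 and 1911 CPM in TKO, against 44.4, 199 and 121 CPM in Cre. Myh4, of the fastest type 2B fibres, had 958, 355 and 2414 CPM in TKO, against 36.5, 89.6 and 37.9 CPM in Cre. For these 3 genes, which stand side by side on chromosome 11, the genotypes did not overlap, and TKO 3 was the highest library each time. The log2 fold change was 4.51 ± 0.72 for Myh4, with the lowest adjusted p of any member (0.0592), 3.32 ± 0.74 for Myh1 (0.0828) and 2.92 ± 0.74 for Myh2 (0.097).

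Myh7, the heavy chain of slow skeletal fibres that the heart ventricle also uses, had 145, 119.6 and 633 CPM in TKO, against 3.96, 50.3 and 38.5 CPM in Cre, a log2 fold change of 3.28 ± 0.94 (adjusted p = 0.124). Myh6, the alpha heavy chain of the mouse heart, had 1.56, 1.17 and 3.08 CPM in TKO, against 0.427, 0.957 and 0.798 CPM in Cre. Both sets of values were therefore low for Myh6, with a log2 fold change of 1.42 ± 0.45 (adjusted p = 0.161). Counted per kilobase of exon, so that genes can be compared, Myh6 made up 0.0411% to 0.075% of the 5 adult heavy chains in TKO libraries and 0.175% to 0.329% in Cre libraries. Myh7 made up 5.44% to 6.6% in TKO and 2.38% to 10.1% in Cre, and Myh1, Myh2 and Myh4 the rest.

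Troponin I holds the thin filament in its resting state, with a fast (Tnni2), a slow (Tnni1) and a cardiac (Tnni3) gene. Tnni2 had 275, 253 and 948 CPM in TKO, against 32.2, 90.2 and 48.6 CPM in Cre, with no overlap and a log2 fold change of 3.11 ± 0.59 (adjusted p = 0.0729). Tnni1 had 15, 8.9 and 55.9 CPM in TKO, against 0.659, 4.41 and 4.18 CPM in Cre, and a log2 fold change of 3.14 ± 0.81 (adjusted p = 0.102). Tnni3 had 0.753, 0.966 and 0.697 CPM in TKO, against 0.621, 0.957 and 0.845 CPM in Cre. These last values overlapped, and the log2 fold change was 0.02 ± 0.31 (adjusted p = 0.984).

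Per kilobase, Tnni2 was 97.6% to 98.3% of troponin I in TKO and 95.4% to 97.8% in Cre. Troponin T, which anchors the complex to tropomyosin, was 95.9% to 96.3% fast Tnnt3 in TKO and 93.4% to 97.7% in Cre. Slow Tnnt1 lies 1922 bases from Tnni3 on chromosome 7, and the pair behaved apart: Tnnt1 had 34.3, 33.6 and 149 CPM in TKO, against 2.37, 14.5 and 12.1 CPM in Cre. Cardiac Tnnt2 had 0.502, 2.44 and 2.5 CPM in TKO, against 0.31, 0.638 and 0.845 CPM in Cre, and here TKO 1 lay within the Cre range. Of the calcium-binding troponin C genes, fast Tnnc2 had a log2 fold change of 3.01 ± 0.60 (adjusted p = 0.0745) and slow and cardiac Tnnc1 one of 3.05 ± 0.69 (0.0848).

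The myosin light chains, which brace the lever arm of the motor, ran from 2.09 ± 0.39 for fast Myl1 to 3.66 ± 0.94 for slow and ventricular Myl3, with Mylpf at 3.22 ± 0.59 and Myl2 at 3.01 ± 0.79 (adjusted p = 0.0729, 0.1, 0.0729 and 0.106). Myl3 had 15.3, 15.1 and 119 CPM in TKO, against 1.2, 6.28 and 4.56 CPM in Cre. Its value rested most on 1 library: without TKO 3 the log2 fold change was 1.95. The scaffold genes Neb (nebulin, the ruler of the thin filament), Ttn (titin, the spring of the sarcomere) and Tcap (telethonin, the cap of titin at the Z-disc) had log2 fold changes of 3.65 ± 0.69, 3.63 ± 0.70 and 3.48 ± 0.70. Actn3 (the Z-disc actinin of fast fibres) and Myoz1 (a Z-disc protein that binds calcineurin) had 4.00 ± 0.75 and 3.51 ± 0.64. Adjusted p-values of these 5 genes lay between 0.0729 and 0.0746.

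The genes of calcium handling had positive fold changes and none passed. Ryr1, the release channel of skeletal muscle, had 161, 168 and 669 CPM in TKO, against 12, 65 and 31 CPM in Cre. Atp2a1, the fast-fibre calcium pump SERCA1, had 826, 624 and 2740.2 CPM in TKO, against 54.8, 237 and 102 CPM in Cre. The genotypes were separate for both. Casq1 (the calcium store protein of fast fibres) and Pvalb (the calcium buffer parvalbumin) had log2 fold changes of 3.17 ± 0.62 and 3.67 ± 0.63 (adjusted p = 0.0745 and 0.0669). Pln, which encodes the brake on the cardiac and smooth muscle calcium pump, had 1.36, 1.83 and 3.37 CPM in TKO, against 1.98, 2.5 and 1.17 CPM in Cre, which overlap. Pln lies inside the span of Cep85l on the other strand, as Myh7 overlaps Mhrt. Without strand in the counting, the reads of such a pair cannot be told apart.

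Muscle energy and oxygen genes complete the set. Ckm (muscle creatine kinase) had 545, 444 and 1714 CPM in TKO, against 43.9, 147 and 76 CPM in Cre. The log2 fold changes were 3.34 ± 0.62 for Ckm, 2.87 ± 0.51 for Eno3 (muscle enolase) and 2.82 ± 0.65 for Mb (myoglobin, the oxygen store of slow fibres and heart), with adjusted p-values of 0.0729, 0.0729 and 0.0868. Des, the intermediate filament of all muscle, had 230.4, 305 and 875 CPM in TKO, against 74.7, 126 and 99.6 CPM in Cre, and a log2 fold change of 2.23 ± 0.48 (adjusted p = 0.0803). The cardiac actin Actc1 had 1.21, 4.63 and 8.25 CPM in TKO, against 0.388, 1.17 and 1.36 CPM in Cre (2.29 ± 0.69; adjusted p = 0.14). Nppa, the atrial natriuretic peptide, had 0 counts over the TKO libraries and 5 over the Cre libraries, and was not tested. A count of 0 allows up to 3 counts.

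Dropping TKO 3, the library richest in muscle RNA, left the direction of every tested member except Pln as it was and brought 17 members past the threshold, with 1.45% of all genes. Dropping TKO 2 brought 20 past it, with 3.14% of all genes. Lists of other muscle genes had values of the same kind. Of 23 further sarcomere genes such as Mybpc2 (fast myosin-binding protein C), 22 were tested and 22 had positive fold changes, with a median of 2.96. All 14 genes of excitation and contraction, such as Cacng1 (a subunit of the skeletal calcium channel), were positive, with a median of 2.51. Neither list had a member that passed in edgeR.

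Markers of smooth muscle leaned the other way. Of 8, 7 were tested, 6 had negative fold changes and 0 passed. Their summed level was 222, 292 and 376 CPM in TKO libraries, against 599, 369 and 447 CPM in Cre libraries. Myh11, the smooth muscle heavy chain, had a log2 fold change of -0.90 ± 0.16 (adjusted p = 0.0729). The summed level of 6 white fat markers was 4891, 4124 and 3491 CPM in TKO, against 4514, 4563 and 4398 CPM in Cre. The part that tissue makeup played in the muscle genes was not tested.

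**Figure D2:**
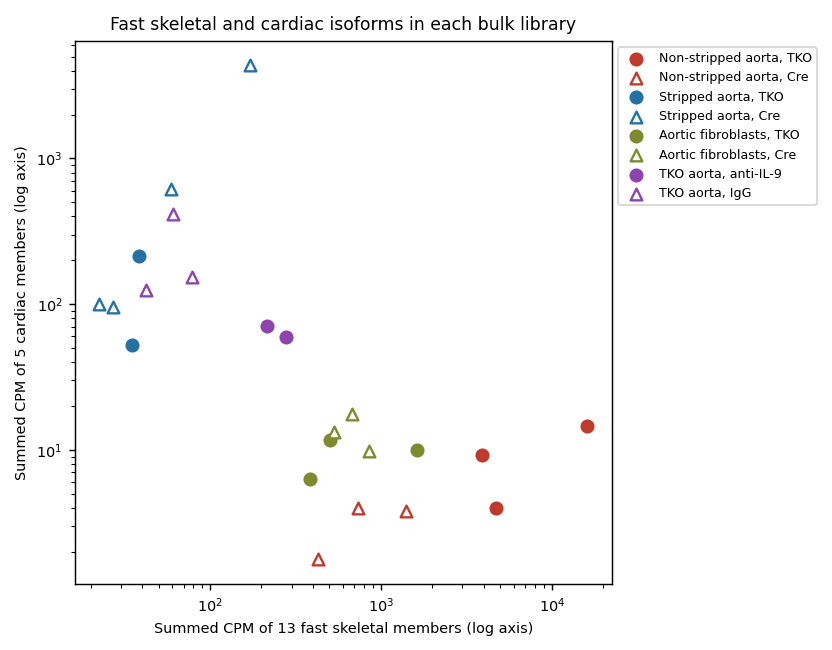
Each point is 1 bulk library, placed by the summed CPM of the 13 fast skeletal members (x, log axis) and of the 5 cardiac members (y, log axis). Myl1 alone made up 118 of the 172 CPM of the fast sum in stripped Cre 3, 37.4 of 58.8 CPM in stripped Cre 4 and 34.5 of 42.3 CPM in IgG 2. Filled circles are TKO or anti-IL-9 and open triangles are Cre or IgG. Libraries of the TKO and Cre non-stripped table lie at low cardiac values (4.02, 9.2 and 14.5 CPM in TKO and 1.78, 3.78 and 3.99 CPM in Cre), those of the antibody table higher (59.5 and 71.2 CPM with anti-IL-9 and 153, 124 and 414 CPM with IgG), and stripped Cre 3 reaches 4348 CPM.

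In stripped aorta the myosin heavy chain and troponin I were mostly of the cardiac kind, and 2 Cre libraries held most of the cardiac RNA. Of 34 members, 29 were tested and 0 passed by edgeR (0.024% of 16688 genes passed), 2 had an unadjusted p under 0.05 (13.8%), and DESeq2 (3.24%), the joint fit (2%) and edgeR without the filter (0.251%) also called 0, with the share of all genes in parentheses. Myh6 had 75.3 and 14.1 CPM in the TKO libraries, against 31.3, 29.4, 673 and 197 CPM in the Cre libraries. Cre 3 and Cre 4 were high, while TKO 1 lay above and TKO 2 below the other 2 Cre libraries. The log2 fold change was -2.38 ± 1.44 (adjusted p = 0.505), and -0.95 without Cre 3.

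The same libraries were high for the other cardiac genes. Actc1 had 43.5 and 7.16 CPM in TKO, against 11.7, 14.6, 484 and 122 CPM in Cre. Tnnt2 had 58.9 and 17.3 CPM in TKO, against 39.8, 34.4, 541 and 204 CPM in Cre. Tnni3 had 32.1 and 10.5 CPM in TKO, against 14.1, 13.9, 100.1 and 96.8 CPM in Cre. For each of the 3, Cre 3 and Cre 4 were the highest libraries and TKO 1 came next. Log2 fold changes were -2.64 ± 1.64, -2.43 ± 1.24 and -1.40 ± 0.98, with adjusted p-values of 0.517, 0.437 and 0.563. Without Cre 3 they were -0.97, -1.28 and -0.97.

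Nppa separated Cre 3 from the rest: it had 4.71 and 2.94 CPM in TKO, against 3.63, 3.99, 2549 and 0.324 CPM in Cre. Cre 4, the second library for Myh6, was the lowest for Nppa. With Cre 3 the log2 fold change was -7.39 ± 3.89 (adjusted p = 0.45) and without it 0.53. Myl7, the atrial regulatory light chain, had 38 and 4.28 CPM in TKO, against 15.8, 16.8, 201 and 129 CPM in Cre. Myl4, the atrial essential light chain, had 36.7 and 5.62 CPM in TKO, against 12.9, 12.6, 433 and 139 CPM in Cre.

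Per kilobase, Myh6 was 98.3 and 91.8% of the heavy chains in TKO libraries, against 96.2, 94.9, 98.7 and 97.9% in Cre libraries. Tnni3 was 85.8% to 95% of troponin I in TKO and 91.1% to 99% in Cre. Skeletal heavy chains were near the floor: Myh4 had 0 and 0.234 CPM in TKO, against 0.031, 0.2, 0.315 and 0 CPM in Cre. Acta1 had 1.74 and 4.58 CPM in TKO, against 1.12, 1.83, 20.7 and 0.998 CPM in Cre. Cre 3 stood alone for Acta1, and the log2 fold change of -0.95 ± 1.32 turned to 1.26 without it. Myl1 of the fast class had 19.1 and 17.9 CPM in TKO, against 4.84, 8.62, 118 and 37.4 CPM in Cre, with Cre 3 and Cre 4 the highest, as for the cardiac genes Myh6 and Actc1. Pvalb, Myh2, Myh4, Tnnc2 and Tnni1 did not pass the filter on low counts, with 5 to 17 counts over the TKO libraries and 16 to 40 over the Cre libraries.

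Some genes shared with skeletal muscle had the same order of libraries. Ttn had 8.49 and 2.74 CPM in TKO, against 3.78, 3.13, 122 and 26.9 CPM in Cre, and Mb had 34.4 and 7.63 CPM in TKO, against 8.8, 10.9, 150.3 and 92.1 CPM in Cre. Des had 35.2 and 29.1 CPM in TKO, against 37.4, 33.4, 355 and 71.6 CPM in Cre. In all 3, Cre 3 was highest and Cre 4 second. Ckm was high in Cre 4 alone (4.34 and 1.51 CPM in TKO, against 2.57, 2.33, 3.43 and 18.5 CPM in Cre), and Eno3 was highest in Cre 2. Tcap differed less between libraries, at 44 and 27.8 CPM in TKO, against 44.1, 48.8, 47.7 and 57 CPM in Cre, and had a log2 fold change of -0.46 ± 0.19 (adjusted p = 0.352). Tnnt1 was lower in both TKO libraries than in any Cre library (1.63 and 2.07 CPM in TKO, against 4.15, 2.43, 4.03 and 7.02 CPM in Cre; -1.25 ± 0.43; adjusted p = 0.285). In stripped aorta, every TKO library lay below every Cre library for 2 of 29 members and above it for 1, against 11.6% and 12% of all genes.

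The median log2 fold change of the cardiac class was -2.43, and it ran from -4.05 without TKO 1 to -0.97 without Cre 3. Smooth muscle markers were negative in 8 of 8, with a summed level of 4016 and 6073 CPM in TKO, against 6609, 7754, 6935 and 7626 CPM in Cre. White fat markers were positive in 6 of 6, with a summed level of 1421 and 917 CPM in TKO, against 356, 535, 503 and 771 CPM in Cre. None of these marker genes passed, and their part in the muscle values was not tested.

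The difference between the genotype effects was tested directly, as the non-stripped effect minus the stripped effect. By edgeR 0 of 34 members passed (0.00571% of 17501 genes passed in either direction), 29 had an unadjusted p under 0.05 (18.2% of all genes), DESeq2 called 14 (5.56% of all genes) and edgeR without the filter on low counts called 5 (0.576%). All 33 differences other than that of Nppa, which had no count in non-stripped TKO and could not be estimated, were positive. The lowest adjusted p belonged to Eno3 (3.35 ± 0.67; 0.0863) and Tcap (3.93 ± 0.85; 0.0863). The difference was 4.06 ± 1.61 for Acta1 (adjusted p = 0.213), 6.41 ± 1.91 for Ttn (0.131) and 3.79 ± 1.93 for Myh6 (0.322). These sizes rest in part on stripped Cre 3. Without it the stripped effect alone was 1.26 for Acta1, where it had been negative, -1.02 for Ttn and -0.95 for Myh6. The differences themselves are not given here without that library. Each tissue has its own table, so levels were not tested between tissues.

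**Figure D3:**
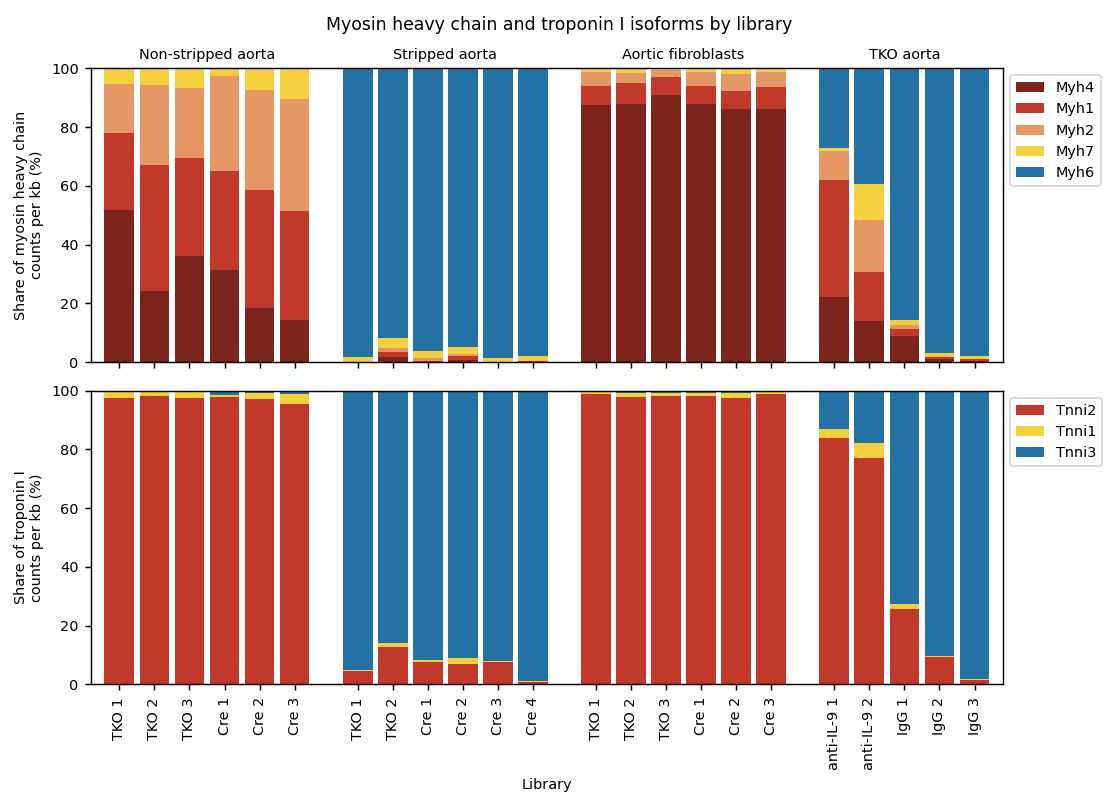
Share of each adult myosin heavy chain (top) and each troponin I (bottom) among the counts per kilobase of its family, in percent, for each bulk library. Skeletal isoforms (reds and yellow) fill the bars of the TKO and Cre non-stripped table and of fibroblasts, the cardiac isoforms (blue) fill those of stripped aorta, and in the antibody table troponin I is mostly skeletal with anti-IL-9 (83.9 and 77.1% Tnni2) and mostly cardiac with IgG (25.8, 9.4 and 1.33% Tnni2).

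Isolated aortic fibroblasts held skeletal muscle transcripts with Myh4 as the main heavy chain, at levels that overlapped between genotypes. Of 34 members, 32 were tested, 0 passed by edgeR (0.0638% of 15673 genes passed), 0 had an unadjusted p under 0.05 (12.1% of all genes), and DESeq2 (2.95% of all genes), the joint fit (0.346%) and edgeR without the filter (2.26%) called 0. No member was higher or lower in every TKO library, against 8.86% and 8.45% of all genes. Myh4 had 611, 134 and 190.1 CPM in the TKO libraries, against 256, 201 and 317 CPM in the Cre libraries. TKO 1 was the highest and TKO 2 and TKO 3 the lowest, so that the Cre libraries lay between them. The log2 fold change was 0.27 ± 0.50 (adjusted p = 0.849), and -0.67 without TKO 1.

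Per kilobase, Myh4 was 87.4% to 90.8% of the heavy chains in TKO fibroblasts and 86% to 87.9% in Cre fibroblasts. In non-stripped aorta it was 24.2% to 51.6% in TKO and 14.2% to 31.4% in Cre, and neither aortic range meets those of the fibroblasts. Acta1 had 393, 91.5 and 112 CPM in TKO, against 164, 124 and 181 CPM in Cre, and Ckm had 209, 52 and 61.4 CPM in TKO, against 87.8, 66.1 and 104 CPM in Cre. Both followed the order of Myh4, with TKO 1 high. Slow genes were low, with Tnni1 at 1.74, 0.678 and 0.643 CPM in TKO, against 0.907, 1.21 and 0.659 CPM in Cre.

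Of the cardiac genes, Tnnt2 had 7.66, 4.81 and 10.3 CPM in TKO fibroblasts, against 16.2, 12.3 and 7.8 CPM in Cre fibroblasts (-0.67 ± 0.32; adjusted p = 0.456). Myh6 had 1.45, 0.432 and 0.38 CPM in TKO, against 0.48, 0.592 and 1.01 CPM in Cre. Actc1 stayed at or under 0.76 CPM (1.17 ± 0.59; adjusted p = 0.467), and Nppa and Pln were not tested. The fold changes of the 13 fast members lay close together, from -0.04 to 0.41, with a median of 0.29 that became -0.61 without TKO 1. Smooth muscle markers summed to 2146, 2049 and 2550.4 CPM in TKO, against 2239, 1258 and 1356 CPM in Cre, and their part was not tested.

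In non-stripped aorta of TKO mice, anti-IL-9 was compared with IgG. Most fast skeletal members rose with anti-IL-9 and 3 of the 5 cardiac members fell, in a table where 32.1% of 16463 genes passed in either direction (21% higher and 11% lower). All 34 members were tested, and 17 rose and 3 fell by edgeR. Of the fast class 11 of 13 rose, together with Acta1, Ryr1, Neb, Ckm, Tnni1 and Myl2, while Myh6, Tnnt2 and Actc1 fell. Every anti-IL-9 library lay above every IgG library for 19 members and below it for 4, against 32.1% and 27.7% of all genes.

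Acta1 had 56.8 and 62.5 CPM with anti-IL-9, against 10.4, 1.9 and 1.69 CPM with IgG. The 2 anti-IL-9 libraries were close to each other, and IgG 1 was the highest of its group. The log2 fold change was 3.67 ± 0.67 (adjusted p = 0.00664). Tnnt3 had 53.4 and 37.4 CPM with anti-IL-9, against 6.63, 0.695 and 0.878 CPM with IgG, a log2 fold change of 4.05 ± 0.77 (0.00772). IgG 1 was again the highest of its group, and without it the median of the fast class was 4.30 in place of 2.98.

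Myh1 had 40.4 and 15.5 CPM with anti-IL-9, against 1.91, 0.417 and 1.13 CPM with IgG, and Myh2 had 11.5 and 18.6 CPM with anti-IL-9, against 1.54, 0.139 and 0.376 CPM with IgG. Their log2 fold changes were 4.62 ± 0.58 and 4.45 ± 0.68 (adjusted p = 0.00125 and 0.003). Myh4 had 21.2 and 12.4 CPM with anti-IL-9, against 7.43, 0.556 and 0.815 CPM with IgG, and did not pass (2.51 ± 0.91; adjusted p = 0.0742), although the groups did not overlap. Myl1, with 46 and 57.6 CPM with anti-IL-9, against 42.6, 34.5 and 49.4 CPM with IgG, was the other fast member that did not pass (0.30 ± 0.18; 0.245). The remaining fast members that rose ran from 1.81 for Actn3 to 4.14 for Tnnc2. Their adjusted p-values lay between 0.00124 for Mylpf and 0.0287 for Actn3.

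Several slow genes were high in 1 library. Myh7 had 1.36 and 15.9 CPM with anti-IL-9, against 1.86, 1.21 and 3.01 CPM with IgG, and Tnnt1 had 0.721 and 6.89 CPM with anti-IL-9, against 0.69, 1.11 and 1.57 CPM with IgG. Myl2 had 0.961 and 8.36 CPM with anti-IL-9, against 0.371, 0.139 and 0.188 CPM with IgG. Anti-IL-9 library 2 was the highest for all 3, and library 1 lay within the IgG range for Myh7 and Tnnt1. Neither Myh7 nor Tnnt1 passed (2.09 ± 0.88 and 1.74 ± 0.83; adjusted p = 0.113 and 0.153), and without library 2 they were -0.56 and -0.63. Myl2 rose (4.28 ± 0.95; 0.0143), and without library 2 its value was 2.02.

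Among cardiac genes, Myh6 had 29.1 and 38.9 CPM with anti-IL-9, against 79.3, 66.3 and 231 CPM with IgG. Tnnt2 had 12 and 13.4 CPM with anti-IL-9, against 31.3, 23 and 73.7 CPM with IgG, and Actc1 had 13.1 and 11 CPM with anti-IL-9, against 29, 21.9 and 69.7 CPM with IgG. IgG 3 was the highest library for all 3, and the groups did not overlap. Their log2 fold changes were -1.88 ± 0.55, -1.74 ± 0.49 and -1.73 ± 0.49 (adjusted p = 0.0392, 0.0323 and 0.0343). Tnni3 and Nppa did not pass (-1.59 ± 0.51 and -2.83 ± 1.15; adjusted p = 0.0513 and 0.103). Over the fits that left out 1 library, the median of the cardiac class ran from -2.06 to -1.12. In DESeq2 21 members passed (32% of all genes), and in edgeR without the filter 28 (24.6%). In the joint fit over all bulk groups 15 passed (34.3%), all of them higher, and none of these 3 cardiac calls held, with adjusted p-values of 0.149, 0.14 and 0.25. Each of the 3 was called in 3 of the 5 fits that left out a library.

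Per kilobase, Myh6 was 27.1 and 39.3% of the heavy chains with anti-IL-9, against 85.7, 96.9 and 98% with IgG. Tnni2 was 83.9 and 77.1% of troponin I with anti-IL-9, against 25.8, 9.4 and 1.33% with IgG. Both tables are labelled non-stripped TKO aorta, yet their isoforms differ. Tnni3 was 72.7% to 98.1% of troponin I in the IgG libraries and 0.0521% to 0.272% in the TKO libraries of the first table. The tables differ in treatment (IgG was given in 1 of them) and are separate count tables of the same series. The difference in isoforms between them was not tested.

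Of the genes shared by skeletal muscle and heart, Ckm rose (1.84 ± 0.44; adjusted p = 0.0188), while Ttn (0.83 ± 0.41; 0.163), Tcap (0.30 ± 0.46; 0.65), Mb (-0.51 ± 0.53; 0.495) and Eno3 (-0.04 ± 0.19; 0.886) did not pass. Of 23 further sarcomere genes 22 were tested, 8 rose and 1 fell, and Mybpc1 had 3.65 ± 0.37 (adjusted p = 0.000462). Of 9 other heart genes 6 were tested, 2 rose and 0 fell past the threshold, but 4 had negative fold changes and the median was -0.79. Gata4 had -1.63 ± 0.52 (adjusted p = 0.0519). The 2 that rose were Tbx20, a cardiac transcription factor (3.16 ± 0.20; adjusted p = 0.000172), and Kcnj3, a subunit of an atrial potassium channel (1.74 ± 0.26; 0.00251). Smooth muscle markers rose in 7 of 8, summed to 1442 and 1414 CPM with anti-IL-9, against 794, 562 and 466 CPM with IgG. White fat markers fell in 4 of 6, summed to 2228 and 2624 CPM with anti-IL-9, against 4838, 4101 and 4681 CPM with IgG. The part of these shifts in the muscle values was not tested.

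**Figure D4:**
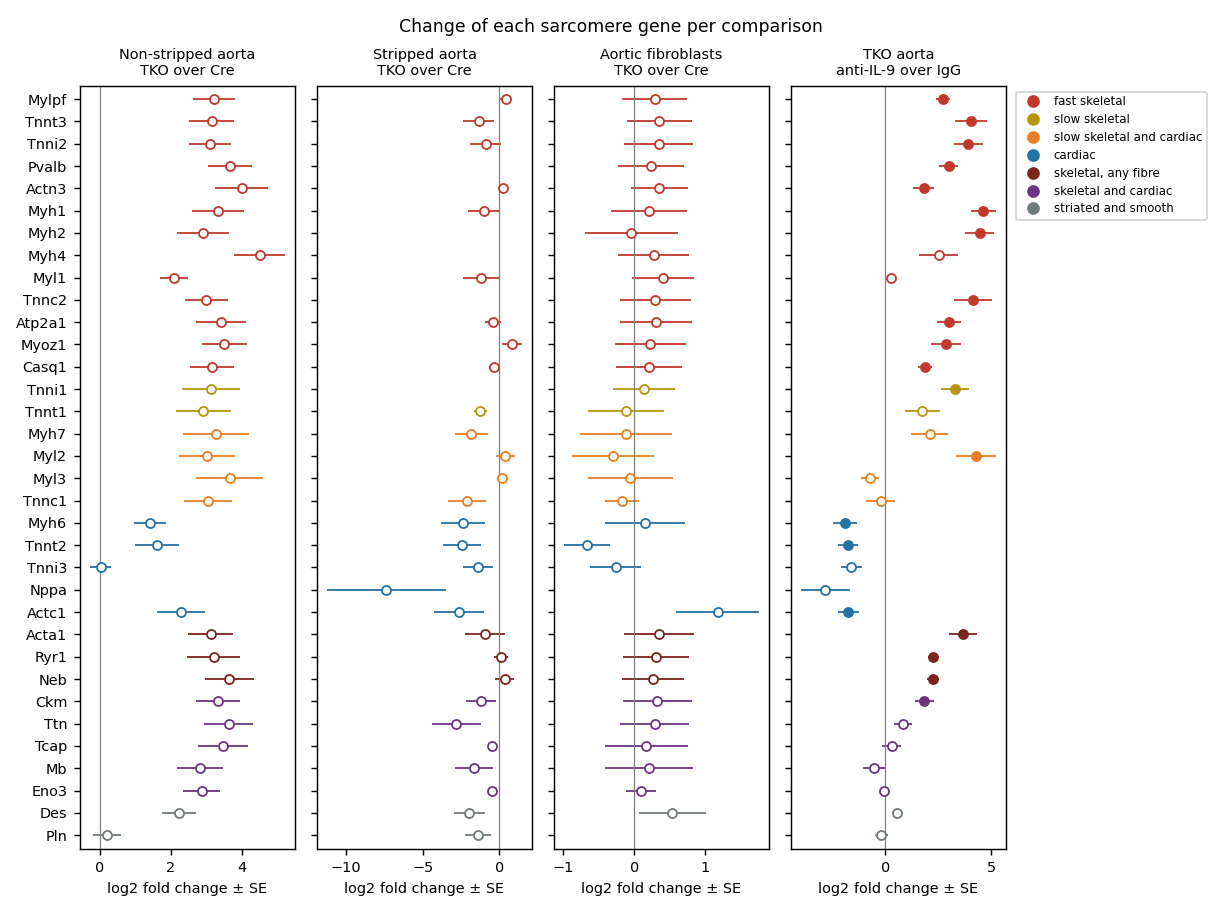
Log2 fold change ± SE of each tested member in the 4 bulk comparisons, coloured by class, with each panel on its own scale. Filled points passed an adjusted p of 0.05 (edgeR). In non-stripped aorta Tnni3, Pln, Myh6 and Tnnt2 lie below the other members, whose lowest is Myl1 at 2.09, and the classes part in the anti-IL-9 comparison, with a median of 2.98 for the fast class and -1.74 for the cardiac class.

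Some genes outside the set followed the members most closely over the 23 bulk libraries. By Pearson's r of log2(CPM + 1) with the summed fast class, given as a description over libraries that share tables, the closest was Mybpc2 (r = 0.971), followed by Ankrd2, Mybpc1, Cacna1s, Myot, Scn4a, Ampd1, Nrap, Rpl3l and Klhl41. After each table was centred on its own mean, r was 0.941 for Mybpc2 and at least 0.846 for all 10. With the sum of Myh6, Tnni3 and Nppa the closest was Myl7 (r = 0.977), followed by Mybpc3, Myl4, Corin, Cfhr2, Mybphl, Qprt, A530032D15Rik, Pipox and Lsr. After centring, r was 0.963 for Mybpc3 and at least 0.88 for Myl7, Myl4, Corin and Mybphl. It was 0.309 for Qprt, 0.453 for Pipox, 0.465 for A530032D15Rik, 0.549 for Cfhr2 and 0.629 for Lsr. The closeness of Qprt rested mainly, and that of the other low ones in part, on differences between tables.

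In the single-cell libraries, 15897 and 8029 TKO barcodes and 15842 and 9712 Cre barcodes were kept. No cluster of kept barcodes could be named a skeletal fibre or a cardiomyocyte from its markers. Cluster 35, of 1536 cells, was led by pancreatic enzyme genes such as Cpa1 and Pnlip. It had 1508 cells in Cre 1, 28 in Cre 2 and 0 in each TKO library. Its UMIs are part of the sums over all kept cells, and its effect on them was not tested. Any 2 libraries shared 175 to 338 barcode sequences, over all barcodes kept or not. A doublet caller marked at most 1 barcode per library, so it had not worked. Apart from the 1 barcode marked in Cre 1, doublets were not removed. Levels are given as CPM of UMIs (counted molecules), without TMM scaling. The 13 fast members had 22.4 and 9.95 CPM in kept TKO cells, against 19.6 and 15.5 in kept Cre cells. The 5 cardiac members had 36.8 and 13.4 CPM in TKO, against 9.75 and 7.66 in Cre.

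Barcodes that failed the filters held more. There the cardiac class had 67.5 and 16.1 CPM in TKO, against 52.9 and 14.2 in Cre, and the fast class 40.3 and 12.1 in TKO, against 36.3 and 24.4 in Cre. Only 13 barcodes over all libraries had 10 or more cardiac UMIs, and 12 of them failed the filters. Of the 13, 9 had over 20% mitochondrial UMIs. Barcodes that failed were not clustered, so the clusters cannot show whether heart cells were among them. The highest, in Cre 1, had 186 cardiac UMIs of 6672, among them Tnni3 and Myh6, and 20.3% mitochondrial UMIs, just over the limit of 20%. Of 8 barcodes with 10 or more fast UMIs, 4 failed, and the highest, in Cre 2, had 154 of 995 UMIs.

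**Figure D5:**
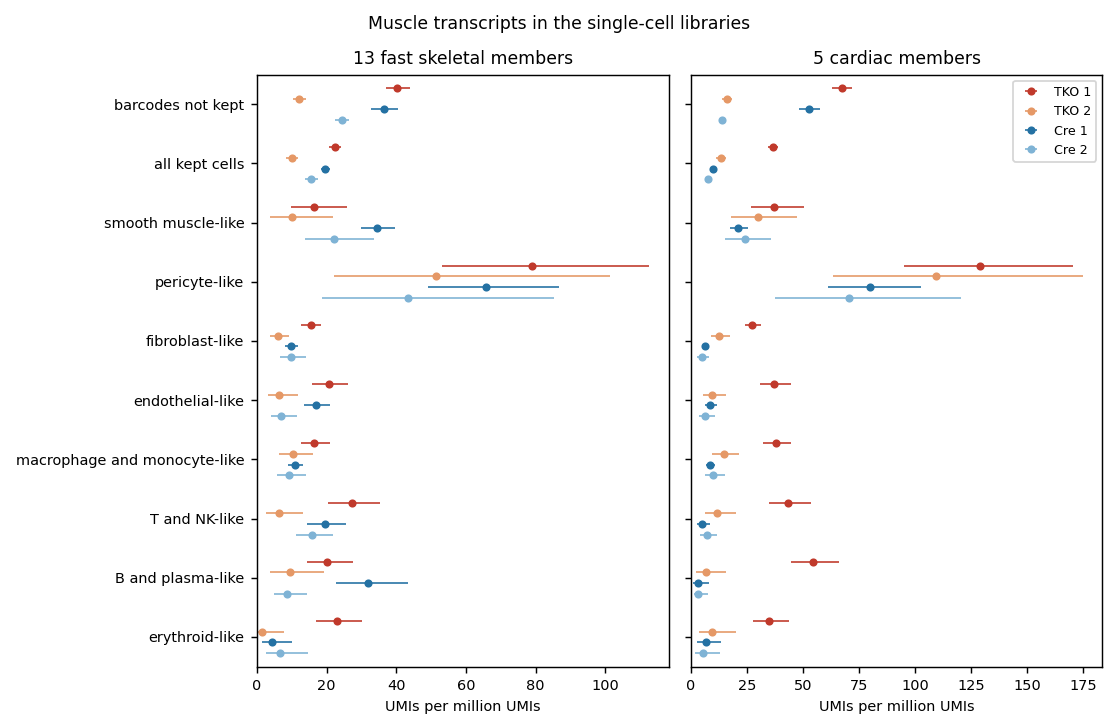
CPM of the 13 fast skeletal members (left) and the 5 cardiac members (right) in each single-cell library, for barcodes not kept, all kept cells and 8 cell classes named from marker genes. Bars are exact 95% Poisson intervals, which cover counting error only. TKO 1 lies above the other libraries for the cardiac members in every class drawn, and pericyte-like cells have the highest cardiac values in each library.

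The genotypes were compared on UMIs summed per library. By edgeR 0 of 24 tested members passed, as did 0% of 15952 genes, 4 members had an unadjusted p under 0.05 (2.12% of all genes), DESeq2 called 1 (0.534% of all genes) and edgeR without the filter on low counts called 3 (1.11%). Those 4 were cardiac. Myh6 had 13.3 and 1.88 CPM in TKO, against 1.11 and 0.93 in Cre, a log2 fold change of 2.84 ± 0.84. Actc1 had 8.57 and 3.76 in TKO, against 2.28 and 1.86 in Cre (1.53 ± 0.41). Tnnt2 and Tnni3 had 1.00 ± 0.34 and 1.08 ± 0.39, and the adjusted p of all 4 was 1. Without TKO 1 the values were 0.92 for Myh6, 0.90 for Actc1, 0.60 for Tnnt2 and 0.57 for Tnni3. TKO 1 was the highest for each, and a cardiac UMI was seen in 6.16% and 1.66% of TKO cells, against 2.26% and 1.09% of Cre cells.

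Cell types that do not build sarcomeres carried these UMIs too. In T and NK-like cells the cardiac class had 43.4 and 11.9 CPM in TKO, against 5.06 and 7.27 in Cre, and in B and plasma-like cells 54.7 and 6.69 CPM in TKO, against 3.26 and 3.48 in Cre. TKO 1 was again the highest, and the median depth of T and NK-like cells was 1348 and 1299 UMIs in TKO, against 2195 and 1579 in Cre. Whether the level in these types is background or expression was not tested.

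By the mean over libraries, pericyte-like and smooth-muscle-like cells had the highest cardiac levels. The highest library of smooth-muscle-like cells had 37.2 CPM, below that of several other classes, such as B and plasma-like cells (54.7). Pericyte-like cells, which wrap small vessels, had 129 and 109 CPM in TKO, against 80.1 and 70.4 in Cre, and the mean over libraries was 97.1, with 28.2 in smooth-muscle-like cells. The pericyte-like value was the highest of all classes in each of the 4 libraries, at median depths of 1501 and 1372 UMIs in TKO, against 2449 and 1663 in Cre. Fast members were also highest in pericyte-like cells (59.9). They had 38.8 CPM in adipocyte-like cells and 38.9 CPM in clusters 0 and 8 together, which are given no cell type name because the leading genes of cluster 8, such as Ear2 and Lyz1, are not dendritic cell markers. Des and Pln together were highest in pericyte-like (181) and smooth-muscle-like cells (133).

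In smooth-muscle-like cells 5 members were tested, 0 passed by edgeR (0% of 8933 genes passed), 1 had an unadjusted p under 0.05 (3.24% of all genes), DESeq2 called 0 (0.0168% of all genes) and edgeR without the filter called 1 (0.397%). Des had 88.9 and 93.4 CPM in TKO, against 149.9 and 101 in Cre (-0.56 ± 0.27; adjusted p = 1). Casq1 had 5.44 and 3.34 in TKO, against 25.7 and 13.1 in Cre, from 6 and 2 UMIs in TKO and 146 and 13 in Cre. The groups did not overlap, and the log2 fold change was -2.23 ± 0.53 (adjusted p = 0.773). Tcap had 15.4 and 244 in TKO, against 19.2 and 277 in Cre, so that the libraries numbered 2 were high in both genotypes (-0.25 ± 1.29; adjusted p = 1). In these cells Pln had 0.28 ± 0.46 and Tnnt2 -0.27 ± 0.38, also with an adjusted p of 1.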

How the data were processed

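Bulk RNA was deposited by the authors as raw counts per gene in 4 tables, and single-cell RNA as UMI counts per gene and barcode. Per the submitters' processing notes, Trimmomatic 0.36, STAR 2.5.2b, featureCounts from Subread 1.5.2, the GRCm38 build and Cell Ranger 6.0.0 were used, with no strand setting given in the sources used here. In the bulk tables, 1 column of per-sample values matched no label and was not used, and a row with no gene name (at most 0.0025% of counts) was left out.

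The 34 members and all gene lists were chosen with earlier results of these data known. Every member may be named. Other genes were named by the smallest p in their list or the highest correlation with the fast class or with the sum of Myh6, Tnni3 and Nppa. Each table was tested with edgeR 4.0.16 (quasi-likelihood, TMM, filterByExpr with a minimum count of 10, Benjamini-Hochberg threshold 0.05) in R 4.3.3, over its 2 groups. Differences between genotype effects came from a joint fit of non-stripped and stripped libraries. DESeq2 1.42.0, other size factors, no filter, a joint fit over 8 groups and leaving out each library were alternatives. The tests were tried on simulated counts.

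Single cells needed at least 500 genes, 1000 UMIs and at most 20% mitochondrial UMIs. They were clustered with scanpy 1.11.5 (2000 variable genes, 30 components, 15 neighbours, Leiden resolution 1.5) into 36 clusters, called X-like from marker genes, and UMIs were summed per library for edgeR. Exact Poisson intervals at 95% cover counting error only. Levels per kilobase used exon lengths of GENCODE release M21 on GRCm38. Promoters are from RefSeq on GRCm38.p6.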

Additional observations from a re-analysis of the deposited data

Results flagged for a closer look

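Among the 34 members in the 4 stripped Cre libraries, 7 had 1 library far from the other 3 by Dixon's criterion. Such a criterion also picks some groups by chance, and the members share these libraries, so the 7 are not separate observations. The share of all genes that it picks is not given here, so the count of 7 is not read as unusual. Cre 3 was the high library for 5 of them. Nppa had 2549 CPM there, Des 355 CPM, Tnnt3 33.9 CPM, Acta1 20.7 CPM and Tnni2 6.09 CPM. Cre 4 was the library that stood apart for the other 2, high for Ckm with 18.5 CPM and low for Myl2 with 1.16 CPM. No group of 4 to 10 libraries other than the stripped Cre libraries exists in the bulk tables, and no member's difference between genotype effects passed by edgeR with the filter on low counts, while DESeq2 called 14.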

How the results depend on the processing

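In non-stripped aorta the count of called members was 0 in edgeR, 29 with no filter on low counts, 26 in DESeq2 and 21 in the joint fit. It ranged from 0 to 20 when 1 library was left out, with 20 without TKO 2 and 17 without TKO 3. The difference of genotype effects went from 0 called members to 5 with no filter and 14 in DESeq2. In single cells the count of 0 became 3 with no filter (1.11% of all genes) and 1 in DESeq2 (0.534%) over all kept cells. In smooth-muscle-like cells it became 1 with no filter (0.397%). The cause was not tested.

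The single-cell libraries share the numbers 1 and 2 between genotypes, and the labels do not say that these pair. Deviations of same-numbered libraries correlated at 0.314 over all kept cells and 0.200 in smooth-muscle-like cells. With the number as a replicate block, 1 member was called in smooth-muscle-like cells and 0 over all kept cells. The share of all genes called in these fits is not given here, so the counts are not read as a result about the members.

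Leaving out 1 library, the median of the fast class ran from -0.89 to 0.13 in stripped aorta, from -0.61 to 0.62 in fibroblasts and from 2.54 to 4.30 with anti-IL-9. That of the cardiac class ran from -0.53 to 0.15 in fibroblasts and from -2.06 to -1.12 with anti-IL-9. The cause was not tested. Directions turned with 1 library left out, and the ranges over those fits were as follows. In non-stripped aorta Tnni3 ranged from -0.15 to 0.15 (-0.13 without TKO 2) and Pln from -0.24 to 0.46 (-0.04 without Cre 3). In stripped aorta, with the high end without Cre 3, Tnnt3 ranged from -1.64 to 0.13, Nppa from -7.80 to 0.53 and Acta1 from -1.81 to 1.26. In fibroblasts, with the low end without TKO 1, Myh4 ranged from -0.67 to 0.64, Acta1 from -0.62 to 0.69 and Ckm from -0.60 to 0.65. With anti-IL-9, Tnnt1 ranged from -0.63 to 2.60, Myh7 from -0.56 to 2.97, Tnnc1 from -1.21 to 0.63, Tcap from -0.13 to 0.88, Mb from -0.95 to 0.15, Eno3 from -0.26 to 0.12 and Pln from -0.42 to 0.051. In smooth-muscle-like cells Tnnt2 ranged from -0.71 to 0.16, Tcap from -3.34 to 2.59 and Pln from -0.63 to 0.89.

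Raw counts in place of counts per kilobase moved the mean share of Tnni2 in troponin I to 95.1% in non-stripped TKO and 93.7% in non-stripped Cre, to 96.8% in TKO and 96.4% in Cre fibroblasts, and to 72.3% with anti-IL-9, by construction, since the genes differ in length. Summing all barcodes, or using those that failed the filters, was chosen after seeing the data. With 2 to 4 libraries a group and single-cell members at few UMIs, small differences were not detectable.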

Other observations

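Neighbouring muscle genes of different classes had different levels. Myh6 and Myh7 lie 3756 bases apart on chromosome 14, with no protein-coding gene between them. Per kilobase Myh7 exceeded Myh6 in every library of the TKO and Cre non-stripped table and of the fibroblasts. Myh6 exceeded Myh7 in every stripped library and in every library of the antibody table, which is also non-stripped TKO aorta. This is a description and was not tested.

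Of 12 kept single cells with 10 or more Ttn UMIs, 11 had at most 2 UMIs of the other members together, and these 11 held 10 to 36 Ttn UMIs. These values were found by looking through the data and were not tested.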
